A study of Gallus gallus with 51 samples.

Results

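The MEF2 family is described here in cultured chicken cochlear sensory epithelia after neomycin, an aminoglycoside antibiotic that kills the sensory hair cells. The members were chosen by probe name, as every probe called MEF2A, MEF2B, MEF2C or MEF2D, with the brightness of MEF2B and its wide spread at 0 hr already known. There were 4 such probes among 1509 gene probes, 1 for each gene, and all 4 were among the 1282 probes tested after the dimmest were left out. The 4 names are also current chicken gene symbols in the GRCg7b annotation. Whether each probe, designed to the human gene, matches its chicken gene and tells the 4 apart was not checked.

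The tissue came from White Leghorn chicks aged 10 to 21 days. Cochleae were cultured for 24 hr with 1 mM neomycin or without it, and the sensory epithelia (sheets of hair cells and supporting cells freed from stroma) were taken at 0 hr, at the end of this treatment, or after a further 24 or 48 hr in drug-free medium. Each biological replicate paired RNA pooled from 4 neomycin-treated epithelia with RNA pooled from 4 untreated epithelia of the same time in culture, and both RNAs were amplified before labelling. There were 3 biological replicates per time point and 51 two-colour arrays, 17 at 0 hr, 16 at 24 hr and 18 at 48 hr, on which human 50-mer probes were hybridised with the chicken targets. The arrays of 1 replicate were technical copies of 1 RNA pair, so n is 3 throughout. The p-values measure the spread between replicates, pooled over the time points. The suffix in an array's name gives the dye of its neomycin RNA, Cy3 for suffix 3 and Cy5 for suffix 5.

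MEF2 proteins are transcription factors with a MADS box and an adjoining MEF2 domain, which let them bind A/T-rich sites as homodimers or heterodimers. They are held inactive by class II histone deacetylases and are released by calcium-dependent kinases. They are best known for driving muscle genes with the myogenic bHLH factors, and MEF2C and MEF2D also act in neurons and in the survival of differentiating cells. Fewer cells of a type and less RNA per cell cannot be told apart in such pooled epithelia.

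MEF2B had a clear signal in most RNAs, MEF2A and MEF2C had one in some replicates, and MEF2D had almost none. The MEF2B ratio was below 0 in 3 of 3 replicates at 0 hr and at 24 hr, as were those of 11.5% and 13.7% of all tested probes. Its size differed widely between replicates, and its mean was near 0 on the log2 scale at 48 hr. None of the 4 genes passed the test at 24 hr or 48 hr. All ratios are log2 of neomycin over control after loess normalization within each array, so a negative value means less signal from neomycin RNA.

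Before the ratios, the arrays themselves differed. The median signal over gene probes lay between 460 and 2903 scanner units on the arrays in neomycin RNA, against 262 to 3685 in control RNA. The share of spots at or below their local background ran from 0% to 81.9% in neomycin RNA and from 0.0326% to 89.0% in control RNA. At least 1 spot averaged 65000 or more, near the scanner's ceiling, on 39 arrays. In 0 hr replicate 3, the second suffix 5 array correlated negatively with the other 3 arrays of its replicate over the 1282 tested probes (Pearson r = -0.64, -0.26 and -0.28), whereas those 3 correlated with each other at r between 0.30 and 0.46. Its header names neomycin RNA in Cy5, as its label does, but gives a Cy3 scanner gain of 66, equal to that of the suffix 3 array, against 30 and 29 on the other suffix 5 arrays. Its direction is therefore not settled, and the 0 hr values of the MEF2 genes are also given without it and with its sign turned. Of the other 3 arrays, the third suffix 5 array has a header that names Cy5 for both RNAs, and its label was used. Negative correlations within a replicate also occurred in other replicates. The third suffix 5 array of 0 hr replicate 1 had a mean r of -0.08 with its replicate's other arrays (lowest -0.42). For the first suffix 5 array of 48 hr replicate 2 the mean was -0.02 (lowest -0.28). The array of unsettled direction had a mean of -0.40.

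Signal was judged against 38 negative-control spots on each array. Their 95th percentile ran from 767 to 7252 scanner units over the arrays in neomycin RNA and from 773 to 19190 in control RNA. Counts above it therefore depend on these spots as well as on the probe. A probe was counted as above background in an RNA when the mean of its 2 spots exceeded the 95th percentile of those spots on the same array and dye. MEF2B did so in 42 of 51 arrays in neomycin RNA and in 45 of 51 in control RNA, or 85.3% of the 102 array-channels (95% exact binomial interval 76.9 to 91.5%, counting error only). Only 15 of the 1509 gene probes had a larger share, and the median gene probe had 16.7%. The brightness of MEF2B was known at the choice of the family, so its share, interval and rank restate that choice and are descriptions only. The arrays of 1 replicate repeat the same RNA, so this interval is narrower than one over independent samples would be.

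MEF2B was above the threshold in 16 of 17 arrays for neomycin RNA and 17 of 17 for control RNA at 0 hr, and in 15 of 16 and 16 of 16 at 24 hr. At 48 hr the counts were 11 of 18 for neomycin RNA and 12 of 18 for control RNA. The 48 hr arrays below it were those of replicate 1, where only 1 of 8 arrays passed in neomycin RNA and 2 of 8 in control RNA. The other 2 replicates of 48 hr passed on every array in both RNAs.

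MEF2A passed in 20 of 51 arrays for neomycin RNA and 22 of 51 for control RNA. It did so on all 6 arrays of 0 hr replicate 2 and all 6 of 48 hr replicate 2 in both RNAs, and on none of the arrays of 24 hr replicate 3, 48 hr replicate 1 or 48 hr replicate 3. MEF2C passed in 18 of 51 arrays for neomycin RNA and 19 of 51 for control RNA, including all 4 arrays of 48 hr replicate 3 in both RNAs and, at 24 hr replicate 3, 3 of 4 in neomycin RNA and 4 of 4 in control RNA. MEF2D passed on 1 of 51 arrays in each RNA, both at 48 hr. A ratio of MEF2D thus rests on signal that was not distinguished from that of the negative controls.

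**Figure D1:**
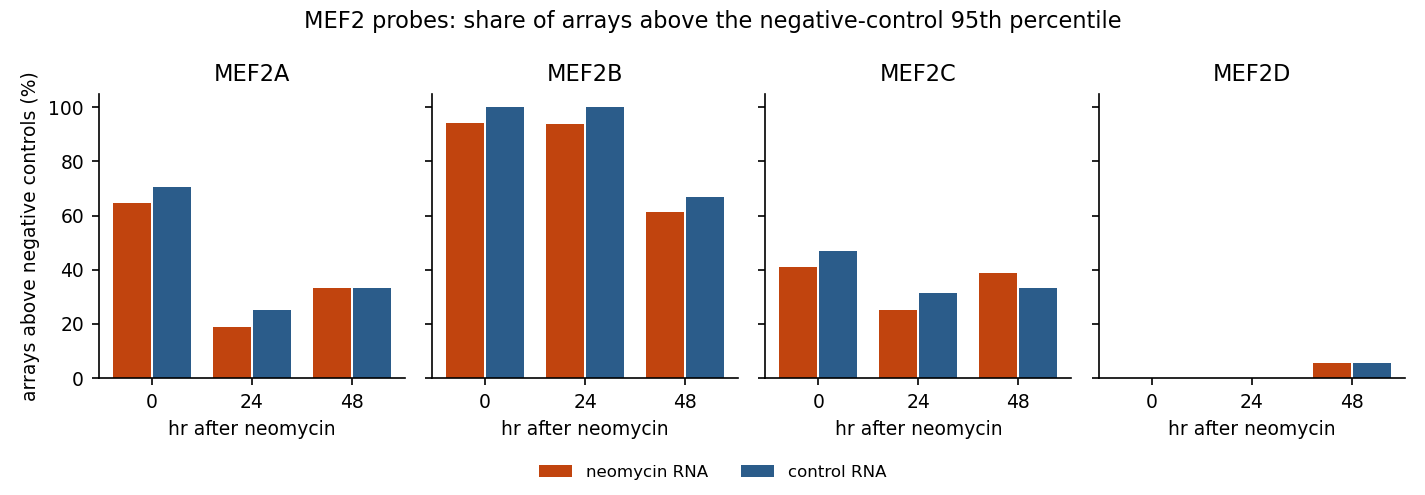
Share of arrays (%) on which each MEF2 probe exceeded the negative-control 95th percentile of its array and dye, by hours after neomycin, for neomycin RNA (left bars) and control RNA (right bars). MEF2B stood above it on at least 93.8% of arrays at 0 hr and 24 hr and on 61.1% (neomycin) and 66.7% (control) at 48 hr, and MEF2D on at most 5.56%.

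MEF2B, the most divergent of the vertebrate MEF2 proteins, gave log2 ratios of -0.07, -1.43 and -2.57 in 0 hr replicates 1, 2 and 3, a mean of -1.36 ± 1.25 (SD, n = 3). All 3 values were below 0, but the first was close to 0 and the third far from it. These values were part of the choice of the family and carry no test. Among all tested probes, 147 of 1282 (11.5%) were lower with neomycin in 3 of 3 replicates at 0 hr (148 without the array of unsettled direction and 165, or 12.9%, with it turned), and no more is read from MEF2B being one of them. Only ATP7B, a copper transporter named here after its value was seen, had a larger SD at 0 hr (1.26) with all arrays as labelled. No probe had one without the array of unsettled direction or with it turned. As labelled, the median SD was 0.22 over all tested probes and 0.56 over the brightest 65. The wide spread of MEF2B was part of the choice, so its rank restates that choice and is a description only.

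In 0 hr replicate 1, MEF2B signal was high in both RNAs, from 10435 to 31173 scanner units in neomycin RNA (median 12379) and from 10780 to 29789 in control RNA (median 15894). The orientations disagreed there, with a mean log2 ratio of -0.57 over the 4 suffix 3 arrays and 0.42 over the 3 suffix 5 arrays. The replicate value near 0 is the mean of these opposite signs, which turned to 0.02 for suffix 3 and -0.31 for suffix 5 when arrays were only centred on their medians.

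In 0 hr replicate 2, neomycin RNA gave 2497 to 12675 units (median 4655) and control RNA gave 20290 to 52926 (median 38337), and the ranges did not overlap. Those of the median gene probe on the same arrays did not overlap either, at 1484 to 2176 units in neomycin RNA and 2290 to 3564 in control RNA. After normalization, the MEF2B ratio was below 0 on 6 of 6 arrays, with means of -1.72 for suffix 3 and -1.13 for suffix 5. On 2 of these arrays the 2 MEF2B spots disagreed by over 1 on the log2 scale. On the second suffix 3 array the spots read -2.85 and 0.21, beside a local background of 8074 units in control RNA, and on the third suffix 5 array they read 0.69 and -1.39, beside 6075 units. These were the only MEF2B spot pairs of the 51 arrays that far apart, the median difference being 0.10.

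In 0 hr replicate 3, 3 of 4 arrays had far less signal from neomycin RNA. The value of -2.57 averages a suffix 3 value of -4.42, from 1 array, with a suffix 5 mean of -0.72 over 3 arrays. That 1 array thus weighs as much as the other 3 together. The suffix 3 array read 1633 units in neomycin RNA and 13302 in control RNA, a log2 ratio of -4.42. The first suffix 5 array read 1826 in neomycin RNA and 12354 in control RNA, a log2 ratio of -4.13. The third, whose header names Cy5 for both RNAs, read 6795 and 20500, a log2 ratio of -2.14. The second suffix 5 array, whose direction is not settled, read 15739 units in neomycin RNA and 1482 in control RNA, a log2 ratio of 4.1. Its 2 spots agreed, at 4.2 and 4.01. Without this array, the replicate value was -3.77 and the 0 hr mean -1.76 ± 1.87 (SD, n = 3). With its sign turned, they were -3.94 and -1.81 ± 1.96. Its inclusion as labelled thus gave the smaller mean and the smaller SD of these settings.

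**Figure D2:**
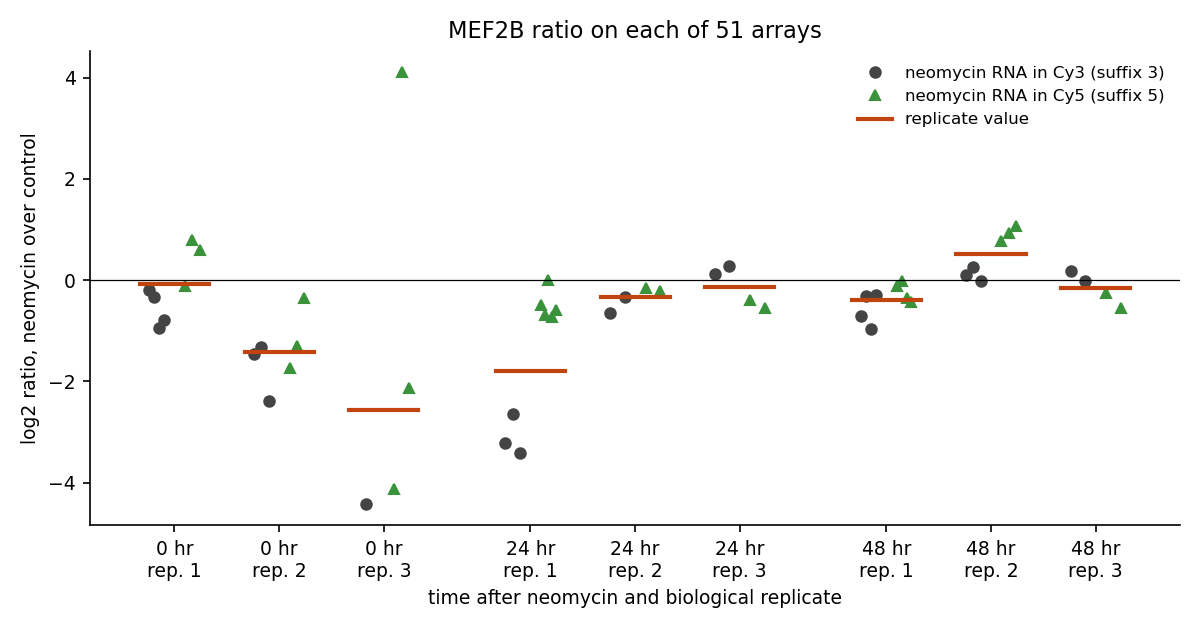
MEF2B log2 ratio, neomycin over control, on each of the 51 arrays by time point and biological replicate, with neomycin RNA in Cy3 (circles) or Cy5 (triangles) and the replicate value as a bar. One array of 0 hr replicate 3 lies at 4.1 while the other 3 lie between -4.42 and -2.14, and the orientations separate in 24 hr replicate 1.

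At 24 hr, MEF2B log2 ratios were -1.80, -0.34 and -0.14 in replicates 1, 2 and 3. The mean was -0.76 ± 0.90 (SD, n = 3), and the gene was lower with neomycin in 3 of 3 replicates, as were 175 of 1282 tested probes (13.7%). The difference did not pass limma's test, with an adjusted p of 0.682 by Benjamini-Hochberg over all tested probes and a 95% interval of -1.70 to 0.18 around the mean. The fit takes 1 spread per probe from all 9 replicates, so the MEF2B SE (0.42) was the same at 24 hr and 48 hr. limma also draws each probe's spread toward that of all tested probes, which made this SE smaller than the MEF2B replicates alone would. The wide 0 hr spread known at the choice of the family is part of it. The MEF2B p-values and intervals at 24 hr, 48 hr and for their difference are therefore not independent of that choice. No probe passed an adjusted p of 0.05 at 24 hr (0 of 1282, 0%), and 107 (8.35%) had an unadjusted p under 0.05. MEF2B, at an unadjusted limma p of 0.10, was not among them.

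Replicate 1 decided this mean: without it the 24 hr value was -0.24. In this replicate neomycin RNA gave 3464 to 11752 units (median 4385) and control RNA gave 11719 to 65496 (median 30857). Both control spots were at the scanner's ceiling on the first 3 suffix 5 arrays, at a mean of 65451, 65496 and 65350 units, so the control signal there is only a lower bound. The loess-normalized ratios were -3.22, -2.65 and -3.43 on the 3 suffix 3 arrays. On the 5 suffix 5 arrays they lay between -0.72 and 0.00.

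The gap between the orientations of this replicate depended on the normalization. With each array only centred on its median, the suffix 5 arrays lay between -2.63 and -1.38, and the means were -3.0 for suffix 3 and -2.20 for suffix 5. The replicate value was then -2.60, and the 24 hr mean -1.0 (limma adjusted p = 0.60). The 2 suffix 5 arrays with unsaturated MEF2B control spots, at 3514 and 3879 units in neomycin RNA against 33637 and 28077 in control RNA, had the same gap: -0.72 and -0.59 after loess, -2.63 and -2.20 after centring. Leaving out the 3 saturated arrays moved the 24 hr mean only to -0.79.

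**Figure D3:**
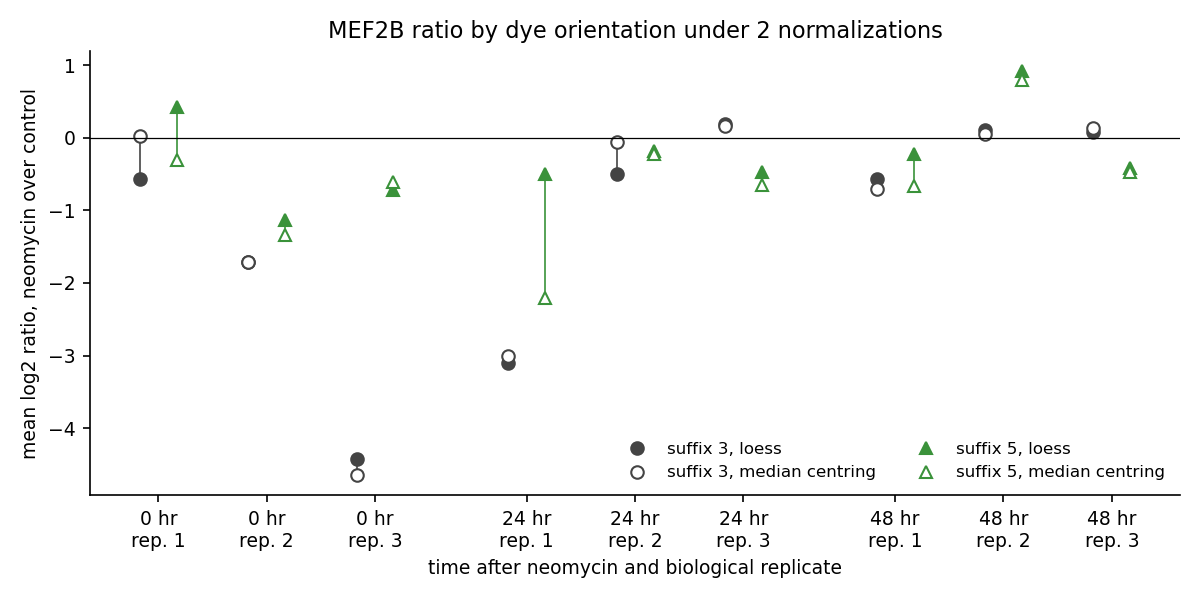
Mean MEF2B log2 ratio of each replicate's suffix 3 arrays (circles) and suffix 5 arrays (triangles), after loess (filled) or median centring alone (open). In 24 hr replicate 1 the suffix 5 mean was -0.50 after loess and -2.20 after centring, the largest gap among the 18 pairs plotted.

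Replicates 2 and 3 of 24 hr showed little. Neomycin RNA gave 3465 to 5228 units in replicate 2, against 3381 to 17857 in control RNA, and the ratio was below 0 on 4 of 4 arrays. In replicate 3 neomycin RNA gave 5091 to 8526 units and control RNA 8898 to 15261. There the suffix 3 mean was 0.19 and the suffix 5 mean -0.47, so the sign followed the dye.

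At 48 hr, MEF2B log2 ratios were -0.40, 0.52 and -0.17, a mean of -0.02 ± 0.48 (SD, n = 3; limma adjusted p over all tested probes = 0.998, 95% interval -0.96 to 0.93). The replicates lay on both sides of 0. Replicate 1 had the weakest signal, 1009 to 3718 units in neomycin RNA and 3920 to 5744 in control RNA, and its ratio was below 0 on 8 of 8 arrays. Replicate 2 had 8256 to 12769 units in neomycin RNA and 6773 to 17076 in control RNA, with a mean of 0.11 on suffix 3 arrays and 0.92 on suffix 5 arrays. Replicate 3 had 4772 to 10981 units in neomycin RNA and 4211 to 11387 in control RNA. At 48 hr, 0 of 1282 probes (0%) passed an adjusted p of 0.05 in limma's test and 58 (4.52%) had an unadjusted p under 0.05.

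**Figure D4:**
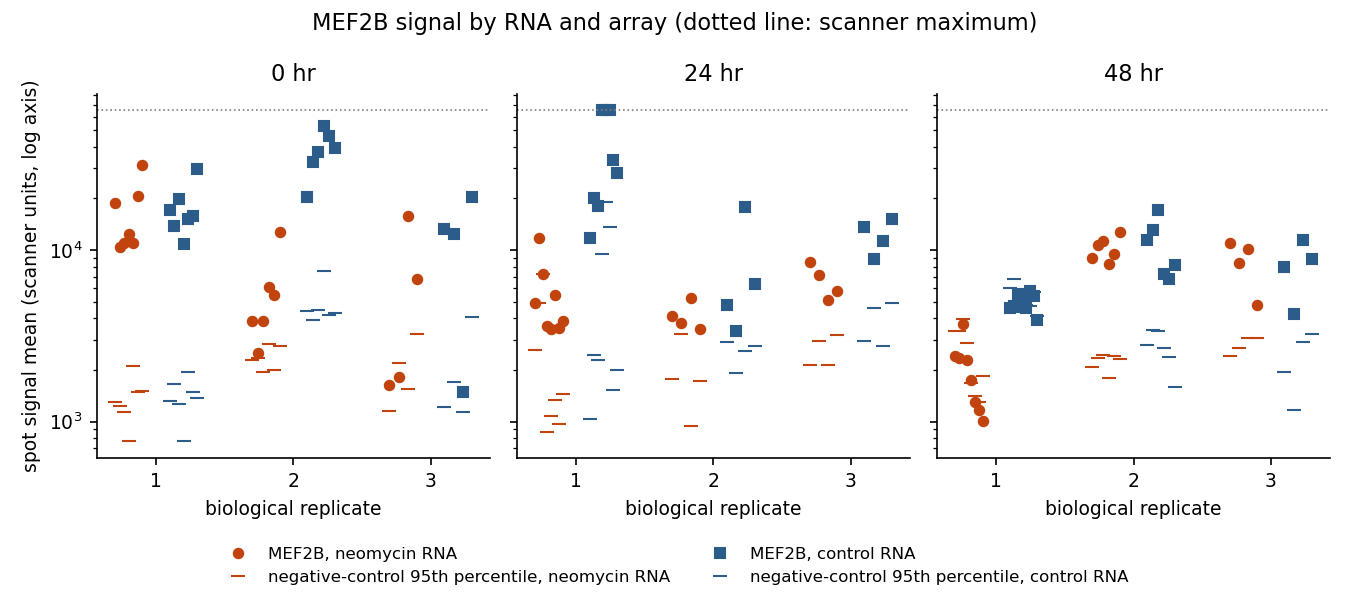
MEF2B spot signal (scanner units, log axis) on each array for neomycin RNA (circles, left) and control RNA (squares, right), by time point and replicate, with the negative-control 95th percentile of the same array and dye as dashes. Control signal reached the scanner's ceiling on 3 arrays of 24 hr replicate 1, and both RNAs of 48 hr replicate 1 lay near the dashes.

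The 48 hr log2 ratio of MEF2B minus its 24 hr log2 ratio was 0.74 (SE 0.60, 95% interval -0.59 to 2.07, limma adjusted p = 0.85), which did not pass the test. In this comparison 0 of 1282 probes (0%) passed an adjusted p of 0.05 and 51 (3.98%) had an unadjusted p under 0.05. One day of image quantification held arrays of more than 1 time point, and on that day MEF2B averaged -1.42 over 5 arrays of 0 hr replicate 2 and 0.52 over 6 arrays of 48 hr replicate 2. Each of these is 1 biological replicate, and the 0 hr values were part of the choice, so no difference between times is read from them. No day held both 24 hr and 48 hr arrays.

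MEF2B was also followed in each RNA by itself. On the scale of log2 background-corrected signal over the median gene probe of the same array and dye, the neomycin RNA of 0 hr replicates 1, 2 and 3 stood at 5.26, 2.54 and 1.72, and the control RNA at 5.46, 3.92 and 4.23. At 24 hr the neomycin levels were 3.26, 2.89 and 2.30 and the control levels 5.92, 2.99 and 2.55. At 48 hr they were 1.52, 3.34 and 2.41 in neomycin RNA and 2.32, 2.82 and 2.62 in control RNA. The control level itself ranged from 2.32 to 5.92 over the 9 replicates, where the 5.92 of 24 hr replicate 1 includes saturated control spots and is a lower bound.

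MEF2A, a broadly expressed member, gave log2 ratios of 0.23, -0.35 and -0.25 at 0 hr (mean -0.13 ± 0.31, SD, n = 3). Replicate 2, in which it was above the negative controls on every array, was also the most uniform, with all 6 arrays between -0.43 and -0.23. Replicate 3 read -0.20 without the array of unsettled direction and -0.11 with it turned. At 24 hr the log2 ratios were -0.83, 0.58 and 0.02, on both sides of 0 (mean -0.08 ± 0.71, limma adjusted p = 0.94). In 24 hr replicate 2 the 2 suffix 3 arrays read 1.16 and 1.36 and the 2 suffix 5 arrays -0.08 and -0.12, and in replicate 1 the arrays ran from -1.65 to 0.27. At 48 hr they were -0.13, 0.19 and -0.00 (mean 0.02 ± 0.16, limma adjusted p = 0.99). The orientations had the same sign in 3 of 9 replicates for MEF2A, against 6 of 9 for MEF2B.

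MEF2C, needed for heart and muscle development and active in neurons, gave log2 ratios of -0.05, -0.06 and 0.10 at 0 hr (mean -0.00 ± 0.09, SD, n = 3). The 0.10 of replicate 3 rested on the array of unsettled direction, which read 1.11. Without it replicate 3 read -0.12 and with it turned -0.26, so that all 3 replicates were then below 0, with means of -0.08 and -0.12. At 24 hr they were 0.05, -0.47 and -0.23 (mean -0.21 ± 0.26, limma adjusted p = 0.73, 95% interval -0.52 to 0.09). At 48 hr all 3 were below 0, at -0.36, -0.07 and -0.04 (mean -0.15 ± 0.17, limma adjusted p = 0.83), as were those of 206 of 1282 tested probes (16.1%). In 48 hr replicate 3, where its signal was above the negative controls throughout, it read 3792 to 6905 units in neomycin RNA and 2115 to 6003 in control RNA, with overlapping ranges.

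MEF2D, the member with signal at the level of the negative controls, had log2 ratios of 0.03, 0.09 and -0.21 at 0 hr, 0.01, 0.01 and 0.30 at 24 hr, and -0.20, -0.09 and 0.03 at 48 hr. Its 0 hr replicate 3 read -0.39 without the array of unsettled direction and -0.37 with it turned. The means were -0.03 ± 0.16, 0.11 ± 0.17 and -0.09 ± 0.12 (SD, n = 3 each), with limma adjusted p-values of 0.89 at 24 hr and 0.88 at 48 hr. These differences were not detectable at this signal. From 24 hr to 48 hr, MEF2A differed by 0.10, MEF2C by 0.06 and MEF2D by -0.19, with limma adjusted p-values of 0.94, 0.94 and 0.86.

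**Figure D5:**
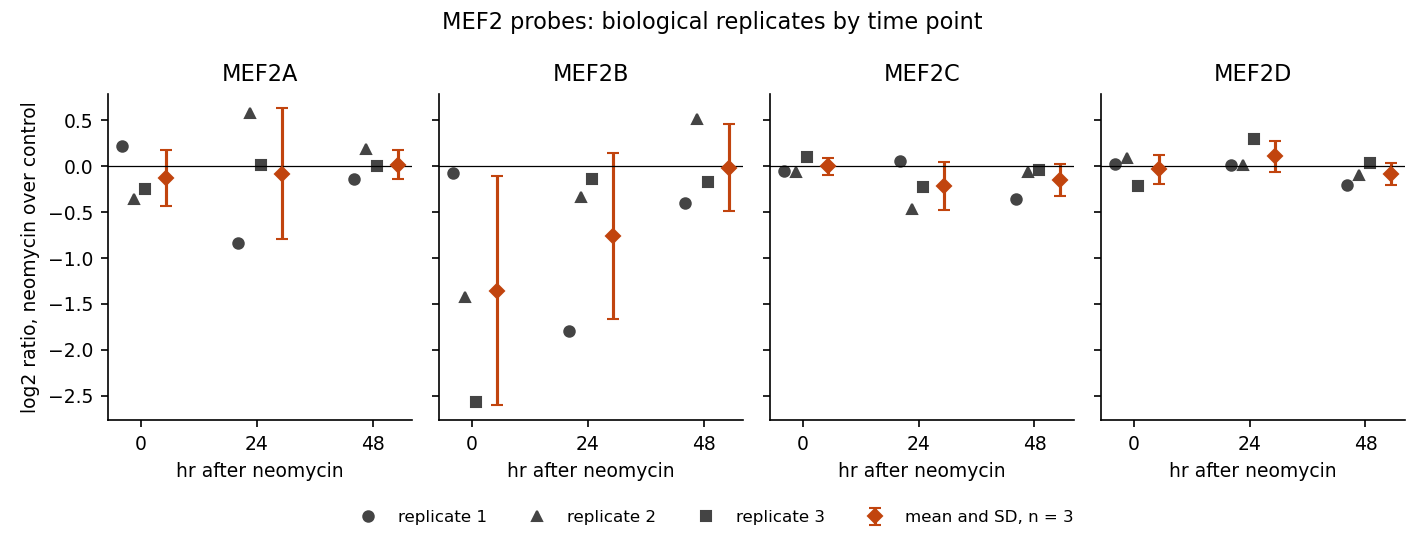
Log2 ratio, neomycin over control, of each MEF2 probe in the 3 biological replicates at 0, 24 and 48 hr (dark symbols), with the mean and SD (diamonds and bars, n = 3). MEF2B runs from -2.57 to 0.52 while MEF2C and MEF2D stay between -0.47 and 0.30.

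Over the 9 replicates, the tested probes whose log2 ratio most resembled that of MEF2B were DKFZP434B0335 (Pearson r = 0.89), RB1 (0.87), FLJ22865 (0.84), SAP30 (0.83) and PBX4 (0.83). RB1 is the retinoblastoma protein, which restrains entry into the cell cycle, and SAP30 is a subunit of the SIN3 histone deacetylase complex. Their own ratios moved far less, between -0.60 and 0.32 over all replicates, and each was above the negative controls in at most 28.4% of array-channels. MEF2A was most like NFATC4 (0.90), SSRP1 (0.88) and BUB3 (0.84), and MEF2C most like MGC2508 (0.95), DKFZP434E2216 (0.94) and NEUD4 (0.94). These are the highest of many correlations over few points that share arrays and normalization, and they are descriptions only. They also depended on the array of unsettled direction: with it turned, 1 of the 5 probes named for MEF2B, 2 of the 3 for MEF2A and 0 of the 3 for MEF2C were still among the most similar, and without it 4 of 5, 3 of 3 and 1 of 3 were. Between members, r was 0.68 for MEF2A and MEF2B, -0.61 for MEF2A and MEF2C and -0.51 for MEF2B and MEF2C as labelled, against 0.47, -0.58 and 0.03 with that array turned.

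Genes known to work with MEF2 proteins gave no call after adjustment at any tested time, when 0 of 1282 tested probes (0%) did. No list of genes could therefore hold a call. HDAC4, a class II deacetylase that represses MEF2, was the only one of 6 listed corepressors matched to a probe name. Its log2 ratios were 0.31, 0.16 and 0.29 at 24 hr (mean 0.25 ± 0.08, SD, n = 3, limma adjusted p = 0.68). Of the coactivators, 4 of 6 were tested, and their median was -0.04 at 24 hr and -0.19 at 48 hr, on the log2 ratio scale. SRF, the other well-known MADS-box factor, and its ternary complex partners ELK1, ELK3 and ELK4 had a median of 0.06 at 24 hr and -0.10 at 48 hr. The median over all tested probes was 0.00 at 24 hr and -0.02 at 48 hr, and none of these 9 probes had an unadjusted limma p under 0.05 at either time.

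Of 8 tested myogenic bHLH factors and partners, 1 had an unadjusted p under 0.05 at 24 hr and none at 48 hr, beside 8.35% and 4.52% of all tested probes. It was MYF5, an early determinant of skeletal muscle, at log2 ratios of 0.07, -3.03 and -1.26 in the 24 hr replicates (mean -1.41 ± 1.56, SD, n = 3, limma adjusted p = 0.59). Among 9 other DNA-binding partners, none had an unadjusted p under 0.05 at 24 hr and 2 did at 48 hr, when 4.52% of all tested probes did. GATA4, a zinc-finger factor of the heart and gut, stood at -0.72, -0.30 and -0.16 and NFATC1, a calcineurin-dependent factor, at 1.72, 0.19 and 0.17 (limma adjusted p = 0.78 for each). Among 8 genes described as MEF2 targets, 2 did at 24 hr, when 8.35% of all tested probes did, and none at 48 hr. RUNX2, a bone and cartilage factor, was at -0.58, -0.22 and -0.43 and EGR1, an immediate early gene, at 0.39, 0.34 and 0.13 (limma adjusted p = 0.59 for each). Signal was weak for some of these: at 24 hr RUNX2 was above the negative controls in neomycin RNA on 0% of arrays and in control RNA on 6.25%, and at 48 hr NFATC1 was on 5.56% in neomycin RNA and 0% in control RNA.

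Markers of the cell types the epithelia could hold gave no call after adjustment either, where 0 of 1282 tested probes (0%) did. POU4F3, a factor of hair cells, had log2 ratios of -1.60, -0.76 and -0.01 at 48 hr (mean -0.79 ± 0.80, SD, n = 3, limma adjusted p = 0.78), and SOX2, of supporting cells, had -1.09, -2.00 and 0.13 at 24 hr (mean -0.99 ± 1.07, limma adjusted p = 0.59). None of the 4 tested hair cell markers, POU4F3 included, had an unadjusted limma p under 0.05 at 24 hr, and their median log2 ratio was then -0.02. The 4 muscle markers, MYF5 among them, had median log2 ratios of 0.04 at 24 hr and 0.02 at 48 hr, and their mean level ranged from -0.85 to 0.87 in neomycin RNA and from -0.99 to 0.77 in control RNA over the 9 replicates. The 5 tested supporting cell and otic markers had a median of -0.13 at 24 hr, with 4 of 5 below 0. None of the 4 neuron and glia markers or the 4 blood cell markers had an unadjusted limma p under 0.05 at either time. The 6 stromal markers had medians of -0.14 at 24 hr and -0.07 at 48 hr, with PRRX1 (PMX1 on the array), a mesenchymal homeobox gene, at -0.51, -2.00 and -0.54 at 24 hr (limma adjusted p = 0.59). At 0 hr, as labelled and untested, the median was 0.01 for hair cell markers (2 of 4 below 0). It was 0.07 for muscle (2 of 4 below 0) and -0.02 for both supporting cell (3 of 5) and stromal markers (4 of 6). Named after their values were seen, MYF5 read 0.28, -0.91 and -1.69 and PRRX1 0.02, -0.43 and -1.61 in 0 hr replicates 1, 2 and 3. Both fell in the replicate order of MEF2B, as did POU3F4 of the stromal list (0.39, -0.13 and -0.33). MYF6 (-0.01, 0.30 and 0.51) and MYOD1 (-0.21, 0.32 and 0.42) of the muscle list rose in that order instead. FOXC2 (0.07, 0.40 and 0.65) and TBX18 (-0.24, -0.17 and 0.46) of the stromal list rose as well. The part of cell makeup in the MEF2B ratios was not tested.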

How the data were processed

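The authors' scanner files hold spot and local background intensity for each dye, from ImaGene, and the deposited matrix holds log2 ratios of neomycin over control that equal the log2 ratio of the raw spot means in 51 of 51 columns (within 1e-06), so neither is normalized. The labels gave time, replicate and dye orientation. Image headers named the neomycin dye of the label on 51 arrays. On 1 array, the third suffix 5 array of 0 hr replicate 3, they named that same dye for the control too, and the label was used. With R 4.3.3 and limma 3.58.1, spot means were corrected by normexp (offset 50), normalized by loess with control spots at weight 0, turned to neomycin over control, averaged over 2 spots, over arrays within each orientation and then over orientations. The dimmest 15% of gene probes were left out. limma was fitted to 9 replicate values with 3 time means, with Benjamini-Hochberg adjustment over all tested probes, and it was tested on simulated data. The 19 negative-control probes were recognised by name, and 8 mismatch-named probes were left out. With 3 replicates per time point, their spread limits the precision of each mean. Same-numbered replicates of different time points were not treated as paired, as no label says that they share material. The separate cultures per replicate come from the methods. The members, related genes, markers and tests were chosen with earlier results of these data known. Members were always named, with the most correlated probes (5 for MEF2B, 3 for MEF2A and MEF2C) and at most 2 genes of smallest p per list and time.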

Additional observations from a re-analysis of the deposited data

Results flagged for a closer look

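The arrays of each replicate were compared for each MEF2 probe, and in 2 of 36 groups of arrays 1 array lay far from the rest (chance gives about 1 in 20). MEF2C read -0.51 on the third suffix 5 array of 0 hr replicate 2, where the other 5 arrays lay between -0.07 and 0.16. MEF2C also read 1.06 on the fifth suffix 5 array of 24 hr replicate 1, where the other 7 arrays lay between -0.29 and 0.26. The first of these arrays is also one of the 2 whose MEF2B spots disagreed. The distance asked of an array grew as the group shrank. In the 4 arrays of 0 hr replicate 3, the gap from the MEF2B value of 4.1 to the next array took 0.732 of the whole range, more than in either MEF2C case (0.660 and 0.595), but did not reach the limit for 4 arrays.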

How the results depend on the processing

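No MEF2 probe passed an adjusted p of 0.05 at 24 hr or 48 hr under any of 22 alternatives. None passed for 48 hr minus 24 hr under any of 25. MEF2B was below 0 at 0 hr and 24 hr under all 22, which reuse the same arrays and add no support for its sign. At 0 hr, where its values were part of the choice, MEF2B ran from -2.23 on suffix 3 arrays alone to -0.48 on suffix 5 arrays alone. Near 0, signs turned for tested values. MEF2B at 48 hr was 0.013 with no background correction, 0.019 with signal medians, 0.023 with scaling between arrays, 0.067 with quantification day as a random block and 0.094 on suffix 5 arrays alone. Background subtraction gave -0.25 for MEF2A at 48 hr and -0.014 for MEF2D at 24 hr. The deposited unnormalized ratios gave 0.0079 for MEF2A at 24 hr and 0.023 for MEF2D at 48 hr. Suffix 5 arrays alone gave -0.0055 for MEF2A and 0.016 for MEF2C at 48 hr. For MEF2C, 48 hr minus 24 hr was -0.023 with the day block, -0.10 on suffix 3 arrays and -0.052 with the methods' t-test on single arrays. At 0 hr, MEF2C moved without a turn of sign to -0.10 with background subtraction and -0.12 with the array of unsettled direction turned, a setting chosen after seeing the data, and the 22 alternatives ran from -0.12 to 0.059 for MEF2C and -0.091 to 0.10 for MEF2D. The cause was not tested.

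Leaving out 1 replicate at a time, MEF2B ranged from -2.00 to -0.75 at 0 hr, -1.07 to -0.24 at 24 hr and -0.28 to 0.17 at 48 hr. MEF2A ranged from -0.41 to 0.30 at 24 hr and -0.067 to 0.093 at 48 hr, MEF2C from -0.35 to -0.086 and -0.21 to -0.054, and MEF2D from 0.013 to 0.16 and -0.15 to -0.028. For 48 hr minus 24 hr, MEF2A ranged from -0.28 to 0.43, MEF2B from 0.22 to 1.05, MEF2C from -0.068 to 0.19 and MEF2D from -0.25 to -0.098.

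Treating the 51 arrays as single values called probes where the replicate values called none: 37 at 24 hr and 4 at 48 hr with the replicate as a random block, 29, 2 and 5 (48 hr minus 24 hr) with array weights added, 70, 41 and 14 with the day block, and 64, 41 and 22 with the methods' t-test after Benjamini-Hochberg adjustment. Suffix 5 arrays alone called 1 at 24 hr. Probes with an unadjusted p under 0.05 ranged from 49 to 258 at 24 hr, 7 to 405 at 48 hr and 27 to 278 for 48 hr minus 24 hr. Log2 ratios of same-numbered replicates at different times correlated at -0.16 to 0.06. As the response itself may differ between times, this cannot show whether those replicates shared material. With the replicate block MEF2B at 48 hr minus 24 hr was 0.74 (limma adjusted p = 0.895). In that fit 88 probes at 24 hr, 62 at 48 hr and 43 for the difference had an unadjusted limma p below 0.05.

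Detection was tried at 2 other thresholds. Above local background alone, 84 array-channels of 102 passed for MEF2A, 102 for MEF2B, 89 for MEF2C and 79 for MEF2D, and above the 99th percentile of negative controls MEF2C passed in 18. Signal over the negative controls limits what MEF2A, MEF2C and MEF2D ratios can show.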
